A study of Homo sapiens with 11 samples.

Results

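CEACAM1, CEACAM3, CEACAM5, CEACAM6, CEACAM7 and CEACAM19 belong to the carcinoembryonic antigen-related cell adhesion molecules, a family of immunoglobulin-like surface proteins encoded in a cluster on chromosome 19. The 6 genes were chosen by their log2 signals in the 4 groups of these arrays, which had been seen before, so their levels and changes are given as descriptions and carry no p-value. All their probes were used, found through the RefSeq accession that the array files give for each probe. They have 9 probes of the 42405 on the array, and 6 genes of the 20249 that could be named.

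Family members bind each other and themselves between neighbouring cells. CEACAM1 crosses the membrane and carries inhibitory tyrosine motifs in its cytoplasmic tail. CEACAM3 is a phagocytic receptor of granulocytes with an activating motif. CEACAM5 (the carcinoembryonic antigen of the serum tumour assay), CEACAM6 and CEACAM7 have no cytoplasmic tail and are held in the membrane by a glycosylphosphatidylinositol (GPI) anchor. CEACAM5 and CEACAM6 are often abundant in adenocarcinomas, including those of the lung, and CEACAM7 is known mainly from the colon. Less is known of CEACAM19, which has a transmembrane segment.

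RNA came from A549 and HCC827, established human lung adenocarcinoma cell lines, infected with a retroviral pMXs-Neo vector and selected with G418. Mock cells carried the empty vector, and TRIM58-WT cells carried the FLAG-tagged coding sequence of wild-type TRIM58, a ubiquitin ligase of the tripartite motif family. A549 mock had 3 replicates on 4 arrays, since arrays 1-1 and 1-2 are labelled as the same control cell and were averaged; A549 TRIM58-WT had 3 replicates, and HCC827 mock and TRIM58-WT had 2 each. The study's methods describe isolated clones, so a replicate may stand for a clone, and a legend calls the HCC827 transfectants crude. Nothing in the labels says that the replicates came from separate infections, so p-values measure only the spread between these samples.

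Every level below is a log2 signal from which the array's own 75th percentile was taken away, so 0 is the signal at that percentile. The signal at that percentile ran from 56.6 to 125 and the share of probes well above background from 40.1% to 49.99% over the 11 arrays, and no probe value was saturated. A549 mock replicate 3 and TRIM58-WT replicates 2 and 3 were the dimmest, with 60.3, 62.5 and 56.6 at that percentile. Their shares were 40.5%, 40.1% and 40.4%. The other A549 arrays gave 90.5 to 102.9 and 42.8% to 49.99%. Whether array signal bears on the likenesses below was not tested. Slide 1 held A549 mock array 1-1 and replicate 2, A549 TRIM58-WT replicate 1 and all HCC827 arrays. Slide 2 held A549 mock array 1-2 and replicate 3 and A549 TRIM58-WT replicates 2 and 3. Differences between arrays had a standard deviation over probes of 0.51 between A549 mock replicate 3 and TRIM58-WT replicates 2 and 3. Against the other A549 mock arrays mock replicate 3 gave 0.59 to 0.69, while TRIM58-WT replicates 2 and 3 gave 0.19 between themselves. Values with and without mock replicate 3 are therefore given. Mock arrays 1-1 and 1-2, labelled as the same control cell, gave 0.24. Whether TRIM58-WT replicates 2 and 3 are independent samples is thus not settled, yet both count in each n = 3. TRIM58-WT replicate 1 gave 0.74 and 0.71 against them and 0.69 to 0.78 against the A549 mock arrays. The only TRIM58 probe was well above background on the array of A549 mock replicate 3 alone (-0.71) and lay between -4.84 and -4.63 in A549 TRIM58-WT. Whether it lies in the cloned coding sequence is not given in the sources used here, so it does not check the labels, on which all directions rest.

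Markers of simple epithelium (EPCAM, KRT7, KRT8, KRT18, KRT19 and CDH1) cleared background on all arrays in A549 mock and in both HCC827 groups (6 of 6), and 4 of 6 were in A549 TRIM58-WT. KRT19, a keratin of simple epithelia, was between 6.11 and 7.52 on the A549 mock arrays and between -2.56 and -2.47, not well above background, on the TRIM58-WT arrays. EPCAM, an epithelial adhesion molecule, was between 0.59 and 2.78 in A549 mock and between -3.45 and -2.005 in TRIM58-WT. KRT7 was not lower, with 8.94 to 9.95 in A549 mock and 9.03 to 10.08 in TRIM58-WT. KRT18 (9.24 to 10.01 against 8.80 to 9.19) and KRT8 (7.70 to 7.93 against 6.06 to 6.94) stayed well above background. So did CDH1 (2.35 to 2.82 against -0.54 to 1.80). The linear signals of the 6 markers, each over the 75th percentile, summed to 1508 to 2303 in A549 mock, 1095 to 1720 in A549 TRIM58-WT, 1405 to 1485 in HCC827 mock and 1668 to 1882 in HCC827 TRIM58-WT. Of the lung lineage markers, NKX2-1, a transcription factor of lung epithelium, was well above background on no A549 array and on all HCC827 arrays. There it gave 4.85 and 4.59 for mock against 3.62 and 3.68 for TRIM58-WT, and NAPSA, an aspartic protease of lung epithelium, gave 5.33 and 5.13 against 3.64 and 4.21. The summed signal of the 5 lung lineage markers ran from 59.4 to 69.3 in HCC827 mock and from 25.0069 to 31.6 in HCC827 TRIM58-WT, lower in the latter as CEACAM6 and CEACAM7 were. Only 2 of the 5, NKX2-1 and NAPSA, cleared background on all arrays of either HCC827 group, so the sum is mostly theirs. SFTPA1, SFTPB and SFTPC were at or near background there, the highest reading being -2.10. No fibroblast or endothelial marker cleared background on all arrays of any group. LUM, a matrix proteoglycan of fibroblasts, read 0.07, 0.07 and -0.07 on A549 mock arrays 1-1, 1-2 and 2 and was not well above background in mock replicate 3 (-4.18) or in A549 TRIM58-WT (-4.80, -4.55 and -4.56). It was thus high in the same arrays as CEACAM5, and the other 4 fibroblast markers were at background on all arrays. The 5 summed to 0.216 to 1.20 in A549 mock and 0.185 to 0.240 in TRIM58-WT. Of the markers of other leukocytes, CD3E, a T cell receptor component, was at background on all arrays. CD14, a monocyte coreceptor for lipopolysaccharide, read 0.81, 0.68, 0.84 and 0.93 on A549 mock arrays 1-1, 1-2, 2 and 3 and -1.84, -2.59 and -2.22 in TRIM58-WT, and it stayed between -2.49 and -1.84 in HCC827. The part of these markers in the CEACAM values was not tested.

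The starts of the genes are shown because 5 of the 6 genes had lower mean signals in A549 TRIM58-WT. CEACAM7, CEACAM5, CEACAM6 and CEACAM3 lie close together on chromosome 19. Between CEACAM3 and CEACAM1 stand 34 genes outside the family. RefSeq promoter windows of assembly GRCh38.p14 matched 5 of the 6 symbols, and CEACAM19 had none in the table used. These coordinates are those of the reference alone, since the array design predates it. Each line gives the 200 bases that end 50 bases past the annotated gene start, 5′ to 3′ on the gene's own strand. Capitals mark the E-box CACGTG in CEACAM5 and CEACAM6 and, in CEACAM1, the GC box GGGCGG read on the other strand.

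CEACAM5, chr19:41708476-41708675, plus strand: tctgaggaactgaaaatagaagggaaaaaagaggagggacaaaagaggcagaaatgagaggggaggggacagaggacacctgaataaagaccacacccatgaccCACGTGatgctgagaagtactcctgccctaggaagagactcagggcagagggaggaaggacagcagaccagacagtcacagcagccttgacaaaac

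CEACAM6, chr19:41755380-41755579, plus strand: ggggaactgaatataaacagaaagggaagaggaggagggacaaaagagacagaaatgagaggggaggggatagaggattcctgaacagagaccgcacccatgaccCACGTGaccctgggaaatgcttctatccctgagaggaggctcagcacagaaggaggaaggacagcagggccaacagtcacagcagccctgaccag

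CEACAM7, chr19:41688221-41688420, minus strand: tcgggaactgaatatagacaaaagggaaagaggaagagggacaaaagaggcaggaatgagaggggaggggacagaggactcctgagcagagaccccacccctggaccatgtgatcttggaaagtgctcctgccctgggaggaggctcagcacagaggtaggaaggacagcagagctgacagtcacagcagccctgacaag

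CEACAM3, chr19:41796437-41796636, plus strand: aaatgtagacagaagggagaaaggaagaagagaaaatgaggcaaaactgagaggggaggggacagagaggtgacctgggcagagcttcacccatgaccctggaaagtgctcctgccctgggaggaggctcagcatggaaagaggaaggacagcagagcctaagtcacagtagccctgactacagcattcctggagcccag

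CEACAM1, chr19:42528432-42528631, minus strand: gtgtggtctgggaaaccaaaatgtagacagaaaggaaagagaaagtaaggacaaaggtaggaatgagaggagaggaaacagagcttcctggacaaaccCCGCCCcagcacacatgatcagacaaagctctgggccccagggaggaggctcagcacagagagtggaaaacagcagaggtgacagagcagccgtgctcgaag

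All 5 windows resembled one another. Over the full windows of 300 bases, identity in pairwise alignments ran from 70.44% between CEACAM1 and CEACAM3 to 84.69% between CEACAM5 and CEACAM7. CEACAM5 and CEACAM6 shared an unbroken run of 21 bases, cagaaatgagaggggagggga, that no other of the 34796 windows held. Its last 17 bases, aatgagaggggagggga, also stood in CEACAM7, and in these 3 windows only. The E-box CACGTG, a motif bound by upstream stimulatory factors among others, was at positions -46 to -41 of CEACAM5 and -45 to -40 of CEACAM6, counted from the gene start as 0, and in 7.2% of all windows. The GC box GGGCGG, searched on both strands, was in CEACAM1 at -52 to -47 and in CEACAM6 at -211 to -206, upstream of the bases shown, and in 44.9% of all windows. The AP-1 motif TGACTCA was in none of the 5 windows and in 4.96% of all. These matches describe letters in the reference and not binding in these cells.

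**Figure D1:**
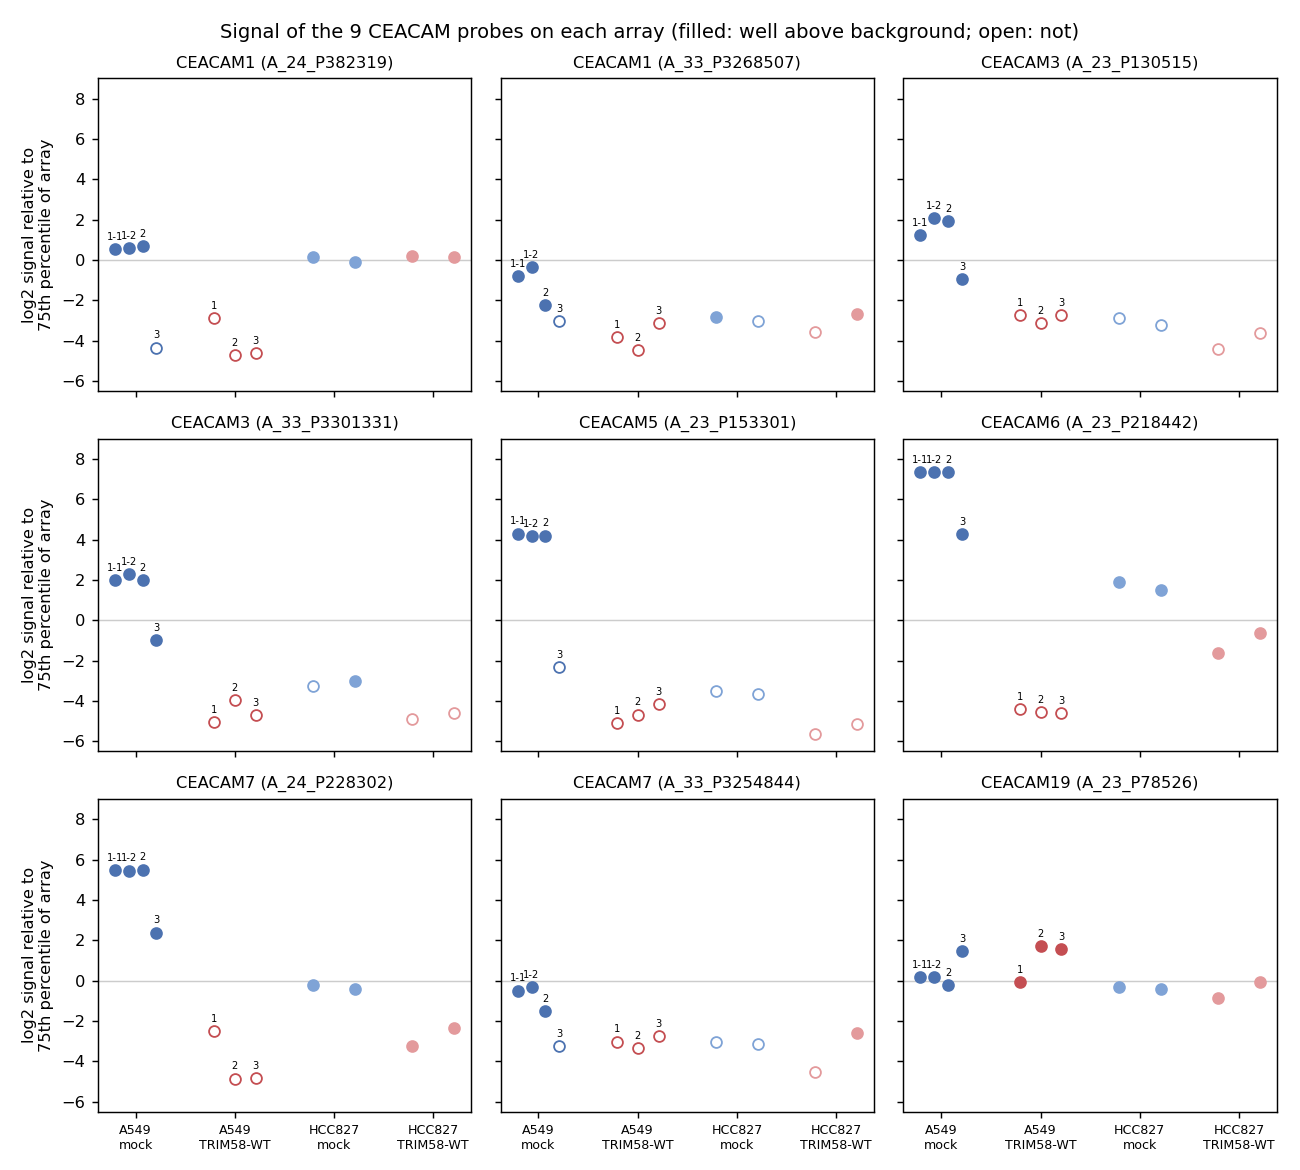
Each panel plots a probe of the 6 genes, with 1 point per array (A549 arrays numbered by replicate), in log2 signal relative to the 75th percentile of the array. Filled points were well above background. CEACAM6 was above 4 on every A549 mock array and below -4 on every A549 TRIM58-WT array, and in 8 of the 9 panels A549 mock replicate 3 stands below the other A549 mock arrays.

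CEACAM6 had the widest range of the 9 probes. In A549 mock its probe (A_23_P218442) read 7.34 and 7.33 on arrays 1-1 and 1-2, 7.35 in replicate 2 and 4.27 in replicate 3. In A549 TRIM58-WT it read -4.40, -4.56 and -4.61, and on none of these arrays was it well above background. The group means were 6.32 ± 1.78 and -4.52 ± 0.11 (SD, n = 3 each). The mean difference of -10.84 (standard error 1.03) therefore sets a measured level against background, and the signal was at least 493-fold lower in A549 TRIM58-WT. This bound compares the mock mean with the TRIM58-WT signals. A signal below the lowest that counted as well above background on its array was first raised to that level. Bounds for the other probes were made the same way. Probes not well above background could still lie above that level, so the bounds are approximate. The brighter CEACAM7 probe did so in TRIM58-WT replicate 1 (-2.49 against -2.84). Without mock replicate 3 the bound was at least 1003-fold. As in all bulk samples, fewer expressing cells and less RNA per cell cannot be told apart.

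In HCC827 the same CEACAM6 probe read 1.90 and 1.499 in its mock replicates, whereas TRIM58-WT gave -1.61 and -0.65, well above background on all 4 arrays. The means of 1.70 ± 0.28 and -1.13 ± 0.68 (SD, n = 2 each) differed by -2.83 (standard error 0.52), which is 7.10-fold lower in TRIM58-WT. Every HCC827 TRIM58-WT value lay below both mock values. The order of the groups was A549 mock, HCC827 mock, HCC827 TRIM58-WT and A549 TRIM58-WT, and no neighbours in it overlapped. The mock lines themselves differed by 4.62. With normexp background correction, which adds an offset that pulls dim signals together, the differences were -6.57 in A549 and -1.71 in HCC827.

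CEACAM7 followed CEACAM6 at its brighter probe (A_24_P228302). A549 mock read 5.46, 5.46, 5.51 and 2.39 on arrays 1-1, 1-2, 2 and 3, and TRIM58-WT read -2.49, -4.85 and -4.83, again not well above background on any array. The means were 4.45 ± 1.79 and -4.06 ± 1.36 (SD, n = 3 each), and the signal was at least 125-fold lower in TRIM58-WT, or at least 255-fold without mock replicate 3. The groups did not overlap, although TRIM58-WT replicate 1 stood above replicates 2 and 3. In HCC827 the probe gave -0.24 and -0.40 for mock against -3.23 and -2.34 for TRIM58-WT, all well above background, a difference of -2.47 (standard error 0.45) or 5.55-fold. A549 mock lay above HCC827 mock and HCC827 mock above both TRIM58-WT groups without overlap, and the TRIM58-WT groups have no order between them, since that of A549 was at background. With normexp the differences were -5.01 and -1.06.

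The other CEACAM7 probe (A_33_P3254844) carries the same accession and was much dimmer. It read -0.49, -0.30 and -1.52 on A549 mock arrays 1-1, 1-2 and 2 and was not well above background in mock replicate 3 (-3.23) or in TRIM58-WT (-3.02, -3.32 and -2.77), so the groups overlapped. Without mock replicate 3, which was itself at background, the signal in TRIM58-WT was at least 3.19-fold lower. In HCC827 it was well above background on 1 array of 4, that of TRIM58-WT replicate 2 (-2.59), and its difference of -0.48 (standard error 0.98) changed sign without TRIM58-WT replicate 1 (0.50). The probes of CEACAM7 thus had the same direction in A549 with very different spans.

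CEACAM5 was a feature of A549 mock replicates 1 and 2. Its probe (A_23_P153301) read 4.30 and 4.19 on arrays 1-1 and 1-2 and 4.20 in replicate 2, but -2.33, not well above background, in replicate 3. Replicate 3 thus read 94.0-fold below the mean of replicates 1 and 2, which is the plain ratio to its background reading. In TRIM58-WT the probe read -5.08, -4.67 and -4.17, all below the mock values and not well above background. The means were 2.04 ± 3.78 and -4.64 ± 0.46 (SD, n = 3 each). Against mock replicates 1 and 2 the signal in TRIM58-WT was at least 116-fold lower. Because mock replicate 3 was at background, the probe did not pass the filter of the fit over all probes. In HCC827 it was well above background on no array, with -3.50 and -3.66 for mock against -5.62 and -5.13 for TRIM58-WT, and no fold is given.

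CEACAM3 was measured by a pair of probes. Probe A_33_P3301331 read 1.99, 2.28, 1.98 and -0.96 on A549 mock arrays 1-1, 1-2, 2 and 3, and -5.06, -3.97 and -4.71 in TRIM58-WT. Probe A_23_P130515 read 1.21, 2.07, 1.93 and -0.94 in A549 mock and -2.71, -3.12 and -2.73 in TRIM58-WT. Both were well above background on all 4 mock arrays and on no TRIM58-WT array, without overlap. The bounds were at least 12.8-fold and 11.03-fold lower in TRIM58-WT, and at least 25.8-fold and 20.7-fold without mock replicate 3. In HCC827 the first was well above background on 1 array, that of mock replicate 2 (-3.00), and the other on none.

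CEACAM3 is known from granulocytes, and the granulocyte markers MPO, CSF3R and CXCR2 were well above background on no array of any group. ELANE was well above background in A549 TRIM58-WT replicate 1 (-1.56) and HCC827 mock replicate 2 (-2.67), and on no other array. Of the 6 granulocyte markers on the array, S100A8 and S100A9, calcium-binding proteins that some epithelia also make, cleared background on all A549 mock arrays. The summed signal of the 6 markers over the 75th percentile ran from 1.04 to 7.33 in A549 mock, 0.424 to 1.77 in A549 TRIM58-WT, 0.342 to 0.42 in HCC827 mock and 0.275 to 0.417 in HCC827 TRIM58-WT. The transcripts of this family are alike in sequence and the probe sequences were not used here, so signal that a probe takes from a related transcript could not be told apart.

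CEACAM1 differed between the lines. Its brighter probe (A_24_P382319) read 0.53, 0.59 and 0.71 on A549 mock arrays 1-1, 1-2 and 2, and was not well above background in mock replicate 3 (-4.34) or in TRIM58-WT (-2.86, -4.73 and -4.60). The groups overlapped through mock replicate 3, which was at least 8.53-fold below the other mock replicates. Against those, the signal in TRIM58-WT was at least 9.61-fold lower. In HCC827 all 4 arrays were well above background, at 0.14 and -0.09 for mock against 0.20 and 0.15 for TRIM58-WT, a difference of 0.15 (standard error 0.12; -0.01 with normexp) without overlap. A549 mock replicates 1 and 2 lay above both HCC827 groups and mock replicate 3 was at background, so A549 mock has no place in an order, and A549 TRIM58-WT lay below both HCC827 groups.

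The other CEACAM1 probe (A_33_P3268507), assigned to another transcript of the gene, read -0.81, -0.36 and -2.23 on A549 mock arrays 1-1, 1-2 and 2, all well above background. It was not well above background in mock replicate 3 (-3.03) or in TRIM58-WT, where it read -3.80, -4.46 and -3.14. The groups did not overlap, and against mock replicates 1 and 2 the signal in TRIM58-WT was at least 2.33-fold lower. In HCC827 it was well above background in mock replicate 1 (-2.85) and TRIM58-WT replicate 2 (-2.68) and the groups overlapped.

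CEACAM19 had another pattern. Its probe (A_23_P78526) was well above background on all 11 arrays. It read 0.17, 0.19, -0.23 and 1.46 on A549 mock arrays 1-1, 1-2, 2 and 3, and -0.08, 1.72 and 1.57 in TRIM58-WT. Mock replicate 3 and TRIM58-WT replicates 2 and 3 were high, and mock replicates 1 and 2 and TRIM58-WT replicate 1 were low, so the labelled groups overlapped. The high replicates were also the arrays with the lowest signal at the 75th percentile, and the part of this was not tested. The difference was 0.60 (standard error 0.77) and stood at 1.097 without mock replicate 3. Within slide 1, which held array 1-1, replicate 2 and TRIM58-WT replicate 1, the difference was -0.05, and within slide 2 it was 0.82. In HCC827 it gave -0.34 and -0.44 for mock against -0.85 and -0.07 for TRIM58-WT, also overlapping. A549 TRIM58-WT and mock came first in the order of means, above HCC827 mock and TRIM58-WT, and A549 mock lay above HCC827 mock without overlap.

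**Figure D2:**
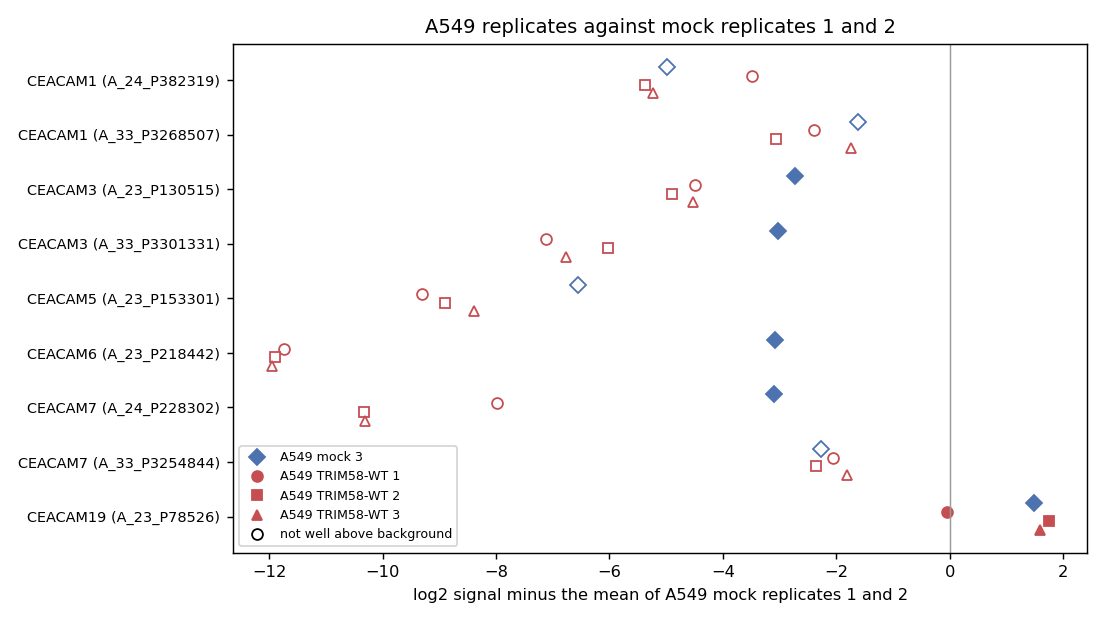
For each probe (rows) the points give A549 mock replicate 3 and the 3 A549 TRIM58-WT replicates as log2 signal minus the mean of A549 mock replicates 1 and 2, which is the line at 0. Open points were not well above background. Mock replicate 3 lies -3.08 from that mean for CEACAM6 and -6.56 for CEACAM5, and 1.49 for CEACAM19, where it stands beside TRIM58-WT replicates 2 and 3.

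In A549, 4 of the 9 probes were at background in mock replicate 3 and did not pass the filter, and the fit of limma over all probes tested the other 5. It called 4 of these, all lower in TRIM58-WT (CEACAM6, the brighter CEACAM7 probe and both CEACAM3 probes), at an adjusted p under 0.05 and 2-fold. These 4 passed the filter through mock alone and were at background in TRIM58-WT, so lower was the only direction open to them. The same holds for the CEACAM probes called below with an A549 replicate left out. Of all 16923 probes tested in A549, 6.92% were called, 3.43% as lower. Over the 9 probes, every TRIM58-WT replicate was below every mock replicate for 6 and the groups overlapped for 3. Among all probes tested the TRIM58-WT replicates were all below for 15.1% and all above for 15.9%. These counts use the signals for which the genes were chosen, so nothing is read from them. Of the 5 probes tested, 4 were among the 6 without overlap. Without mock replicate 3, 9 probes were tested and 7 called, and over all probes the calls also rose, to 2193 of 18182 (12.1%). Without mock replicate 1 or 2 or TRIM58-WT replicate 2 or 3 only CEACAM6 and CEACAM7 were called, and all probes then gave 297 to 372 calls (1.74% to 2.15%).

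In HCC827, 4 of the 9 probes were tested and 0 were called, where 0.884% of all 19563 probes tested were called and 0.593% as lower. Every TRIM58-WT value was below every mock value for 5 of the 9 probes, above for 1 and overlapping for 3. Among all probes tested the corresponding shares were 27.0% below and 29.6% above. Of the 5 that were below, 3 were too near background to be tested (CEACAM5 and both CEACAM3 probes), so that 2 of the 4 tested were below. Without TRIM58-WT replicate 2, CEACAM6 and CEACAM7 were called, while calls over all probes went from 173 to 461 of 20375 (2.26%). The change in A549 minus that in HCC827 was called for 1 of 6 probes tested, where 3.86% of all 20641 tested were. That probe was CEACAM6 (-8.01). The other 5 ran from -6.04 for CEACAM7 to 0.67 for CEACAM19. With mock replicate 3 left out all 9 probes were tested and 6 called, those of CEACAM5 and CEACAM6, both of CEACAM3 and the brighter ones of CEACAM1 and CEACAM7, where 10.5% of all 21005 probes were called.

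**Figure D3:**
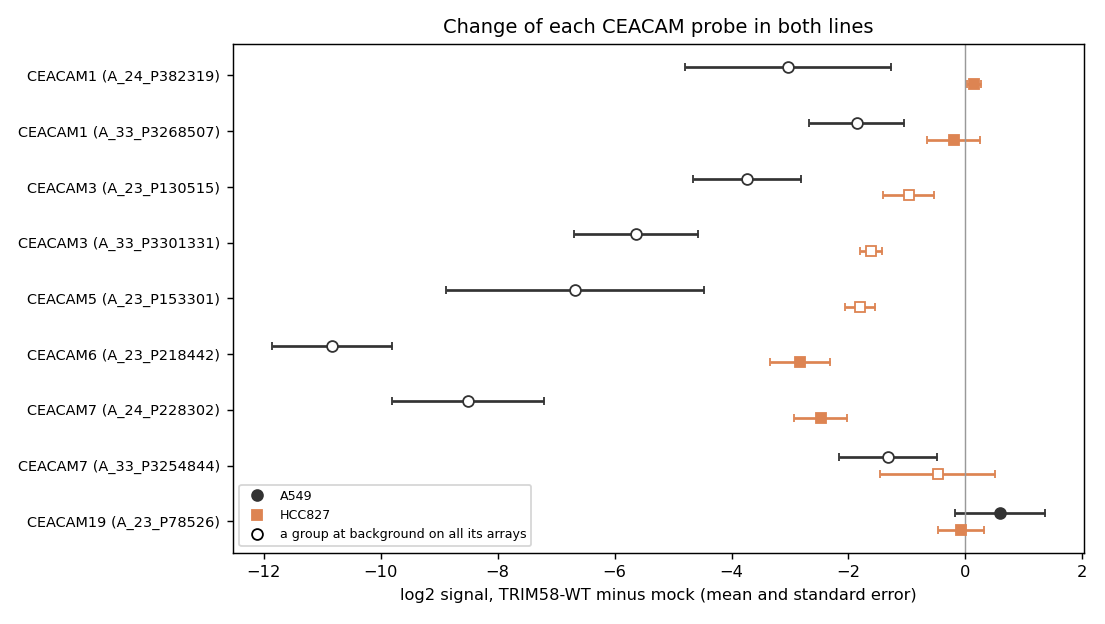
The mean log2 difference of TRIM58-WT minus mock is shown for each probe with its standard error, as circles for A549 and squares for HCC827. Open symbols mark differences in which at least 1 group was not well above background on any of its arrays, so that the true difference has at most a bound. All A549 points apart from CEACAM19 lie below 0, and CEACAM6 and CEACAM7 are the lowest in both lines.

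The rest of the family was mostly at background. Of 17 further CEACAM and PSG genes listed, 12 had 13 probes on the array, and 11 of the 13 were well above background on no A549 array and 12 on no HCC827 array. These include CEACAM8, a granulocyte antigen, and the pregnancy-specific glycoproteins of the placenta. Only CEACAM20 was tested. Its difference was 0.01 (standard error 0.36, adjusted p of limma = 0.994) in A549 and 0.15 (standard error 0.15, adjusted p of limma = 0.583) in HCC827. None of these probes was called in either line, and 0 had an unadjusted p under 0.05.

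Genes that act on or with these proteins were followed in 3 lists. The first held 14 regulators of CEACAM transcription and splicing, among them upstream stimulatory factors, SP1, IRF1 and heterogeneous nuclear ribonucleoproteins. In A549 11 were tested and 0 were called (2 with an unadjusted p under 0.05), with a median difference of 0.05 beside 0.03 over all 11185 genes tested. The share of all genes with an unadjusted p under 0.05 is not given, so nothing is read from such counts in any list. The largest difference was that of IRF1, an interferon-response factor, at -1.15 (standard error 0.33, adjusted p of limma = 0.0859). In HCC827 12 were tested and 0 were called (3 with an unadjusted p under 0.05), with a median of -0.10 beside 0.01 over all 12199 genes. SMAD3, a transducer of TGF-beta signals, differed most at 0.51 (standard error 0.22, adjusted p of limma = 0.284).

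The second list held 19 ligands and cytoplasmic partners of the family. In A549 2 of 12 tested were called, both lower, where 7.97% of all genes were called and 4.08% as lower. LYN, a Src-family kinase that phosphorylates CEACAM tails, read 2.63, 2.69 and 2.07 in the mock replicates and 1.19, 0.81 and 0.93 in TRIM58-WT. It fell by 1.49 (standard error 0.23, adjusted p of limma = 0.0147). LGALS3, the galectin that binds CEACAM sugars, gave 5.94, 6.02 and 5.45 for mock against 4.44, 4.49 and 4.33 for TRIM58-WT, and fell by 1.39 (standard error 0.20, adjusted p of limma = 0.0127). Neither gene's groups overlapped. The median over the list was -0.03, and FLNA, an actin cross-linker, stood at 1.104 (adjusted p of limma = 0.15). Both calls were lost without mock replicate 1 or 2, without TRIM58-WT replicate 2 or 3, and when no filter was set.

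In HCC827 the partners gave 0 calls among 13 tested, where 1.09% of all genes were called, with 5 at an unadjusted p under 0.05 and a median of 0.05. LYN stood at -0.29 (adjusted p of limma = 0.386) and LGALS3 at -0.51 (adjusted p of limma = 0.177). FLNA differed most, at 1.00 (standard error 0.14, adjusted p of limma = 0.0712). The change in A549 minus that in HCC827 was -1.20 for LYN (standard error 0.33, adjusted p of limma = 0.09) and -0.87 for LGALS3 (standard error 0.28, adjusted p of limma = 0.141), so a difference between the lines was not shown for either.

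The third list held 29 genes for the synthesis and attachment of the GPI anchor that CEACAM5, CEACAM6 and CEACAM7 carry. None was called among 25 tested in A549 (1 with an unadjusted p under 0.05) or among 27 in HCC827 (3 with one). The medians were -0.12 and -0.04. The largest differences were PIGZ, a mannosyltransferase, at 0.65 in A549 (standard error 0.32, adjusted p of limma = 0.264) and PIGM, another, at 0.93 in HCC827 (standard error 0.40, adjusted p of limma = 0.293).

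**Figure D4:**
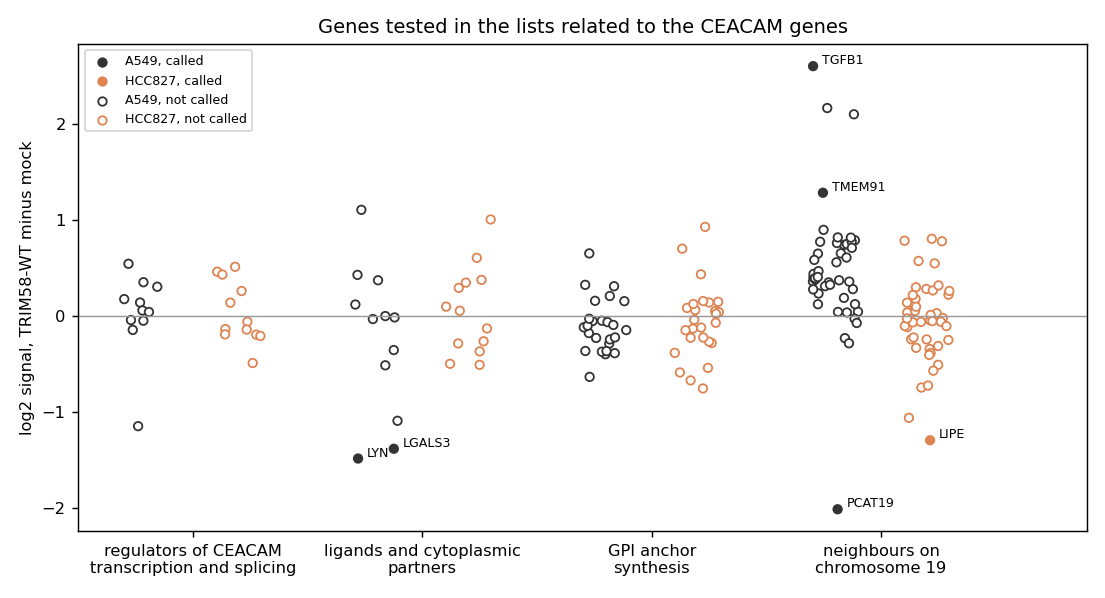
Each point is a gene tested, placed by its log2 signal in TRIM58-WT minus mock, in A549 (black) and HCC827 (orange), for the 3 lists and for the genes that neighbour the CEACAM genes on chromosome 19. Filled, named points were called. In A549 LYN and LGALS3 were called lower among the partners, and no regulator or GPI anchor gene was called in either line.

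The CEACAM genes lie along chromosome 19 in the order CEACAM7, CEACAM5, CEACAM6 and CEACAM3, then CEACAM1 and, farther on, CEACAM19. Within 500 kb of them stand 103 other genes outside the family, of which 60 had a probe. In A549 45 were tested and 3 were called (6.67%), where 7.97% of all genes were called. An unadjusted p of limma under 0.05 was met by 17 of the 45. Of the 3, 2 were higher, as were 3.89% of all genes. TGFB1, the growth factor, was higher by 2.60 (adjusted p of limma = 0.0369), with -1.26, -1.16 and 0.72 in the mock replicates and 1.72, 2.08 and 2.30 in TRIM58-WT. TMEM91, a membrane protein gene, was higher by 1.28 (adjusted p of limma = 0.0268), and PCAT19, a long non-coding RNA, fell by 2.02 (adjusted p of limma = 0.0201). None of the 3 was called without mock replicate 1 or 2, without TRIM58-WT replicate 2 or 3, or with no filter, and TGFB1 was also lost without TRIM58-WT replicate 1. TMEM91 was not called after the median of each array was subtracted (0.91) or with normexp (0.58).

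The median difference of the neighbours in A549 was 0.40 beside 0.03 over all genes tested, and 0.03 beside -0.34 after the median of each array was subtracted. In HCC827 46 were tested and 1 was called, where 0.754% of all genes were called as lower. There, 9 of the 46 had an unadjusted p of limma under 0.05. LIPE, hormone-sensitive lipase, gave 0.22 and 0.14 for mock against -1.09 and -1.15 for TRIM58-WT, and fell by 1.30 (adjusted p of limma = 0.0465), a call lost without any 1 of the 4 replicates. The neighbour median there was -0.04. Between CEACAM3 and CEACAM1 stand 34 of these genes, of which 17 were tested in each line. In A549 they ran from -0.29 to 0.90 with a median of 0.40, and 0 were called. In HCC827 they ran from -1.30 to 0.57 with a median of -0.07, and 1 was called, which was LIPE.

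**Figure D5:**
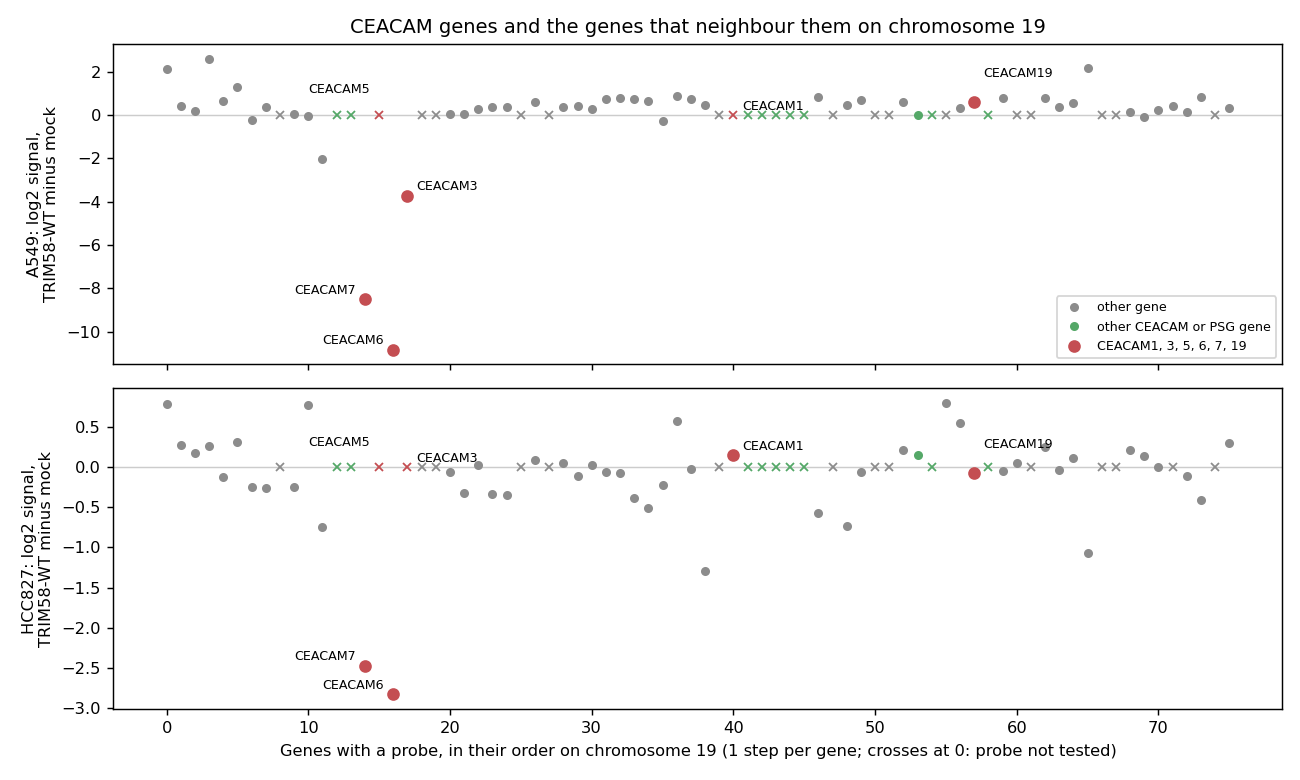
Genes with a probe are placed in their order on chromosome 19, 1 step per gene, against the log2 signal in TRIM58-WT minus mock in A549 (top) and HCC827 (bottom). Crosses at 0 mark genes whose brightest probe was not tested, such as CEACAM5 in both lines. CEACAM6 at -10.84 and CEACAM7 at -8.51 are the lowest points in A549, and they are the lowest in HCC827 at -2.83 and -2.47.

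The genes most like each CEACAM gene were ranked by the root mean square difference of their centred levels over the 10 replicates, among 12811 genes, as a description that rests on the same arrays. CEACAM7 was the closest to CEACAM6 (1.20), followed by TRIM31 (1.35) and PDK4 (1.63). Closest to CEACAM7 were HGD (0.80), PDK4 (0.80) and GPX2 (1.15). IFIH1 (0.41), HSH2D (0.44) and REC8 (0.53) were closest to CEACAM1, and CPAMD8 (0.38), NCAM1 (0.40) and TUBAL3 (0.44) to CEACAM3. For CEACAM19 the closest were PSD4 (0.12), IQSEC3 (0.14) and C3AR1 (0.15). CEACAM5 did not pass the filter in any group and was not ranked.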

How the data were processed

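Total RNA of 11 samples was labelled with Cy3 and hybridised to Agilent SuperPrint G3 human expression arrays in 1 colour. Intensities were extracted by the authors with Agilent Feature Extraction 11.5.1.1 per the file headers (the submitters' processing notes name version 10.7), which subtracted background. A table of log2 values that the authors deposited was an alternative.

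With R 4.3.3 and limma 3.58.1, control and outlier spots were left out, spots of a probe averaged, log2 taken and the array's 75th percentile subtracted. A probe was well above background on an array when over 0.5 of its spots were. Probes that did so on all arrays of 1 group or more entered lmFit and eBayes, by line, with Benjamini-Hochberg adjustment over all probes tested. Calls needed an adjusted p under 0.05 and 2-fold, or, for the difference between lines, at an adjusted p under 0.05. Lists used the brightest probe of a gene. RefSeq accessions, present for 28302 of 42405 probes, named 27241.

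The members, the lists and the alternatives were chosen with earlier results of these data known. Genes named are all members, other family members that were tested, in each list and line the called genes (up to 5) or else that of the largest difference, the 3 most like each member, and TRIM58; FLNA in A549, LYN and LGALS3 in HCC827 and the marker genes were named after their values were seen. Same-numbered A549 replicates did not pair (correlations of deviations 0.503, -0.422 and 0.503; HCC827 0.0773). The fits were tested on simulated data. Promoter windows were aligned with Biopython, and figures drawn with matplotlib. The number of arrays limits the precision. Authors' comparison columns were not used. A marker of other leukocytes, and the sum of that list, are not reported here.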

Additional observations from a re-analysis of the deposited data

Results flagged for a closer look

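The change of CEACAM6 (probe A_23_P218442) differed between the lines by the fit over all replicates of both lines, with the change in A549 minus that in HCC827 at -8.01. The A549 side of this difference has only a bound, since the probe was not well above background in A549 TRIM58-WT. The call was lost without HCC827 mock replicate 1 or HCC827 TRIM58-WT replicate 2, where the difference was -8.21 and -7.53, and with normexp background correction. CEACAM6 was among the signals for which the genes were chosen, so the call is a description. The test for a sample far from its group needs 4 or more replicates and was not run, since no group held over 3.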

How the results depend on the processing

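In A549 the 8 CEACAM probes other than CEACAM19 were lower in TRIM58-WT under all 18 alternatives, among which CEACAM6 ran from -11.86 to -6.57. In HCC827 CEACAM6 and CEACAM7 (A_24_P228302) were lower under all 9. CEACAM5 and CEACAM3 (A_33_P3301331) were too, but at or near background, with smallest differences of -0.11 and -0.13. No decrease is read from these last values. The methods' t-test below is Welch's, which the study's methods name for comparisons of 2 groups in general. They name no test for the arrays, so it need not be the one used there. CEACAM probes called in A549 (4) became 2 with normexp, 2 with TRIM58-WT replicates 2 and 3 averaged (chosen after seeing the data), 0 of 1 tested when every array had to be above background and 0 with the methods' t-test, and ran from 2 to 7 with 1 replicate left out. In HCC827 (0) they became 2 with median subtraction, 2 with normexp and 2 with the filter on every array, and ran from 0 to 2. For the difference between lines (1) they became 2 with quantile normalization, 2 with median subtraction, 2 with mock arrays 1-1 and 1-2 kept separate, and 0 with normexp and with the filter on every array, and ran from 0 to 6. Other CEACAM and PSG probes gave 0 calls throughout. List genes called in A549 (5) became 1 with no filter, 8 with separate mock arrays, 10 with slide as a block, and 0 with replicates 2 and 3 averaged or the methods' t-test, and ran from 0 to 11. In HCC827 (1) they became 2 with the filter on every array and 0 with normexp, the authors' table, no filter, the replicate block or the methods' t-test, and were 0 with any replicate left out. The cause was not tested.

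The replicate block gave 1119 calls over all A549 probes (1171 without it) and 0 in HCC827 (173 without it), and apart from the HCC827 list count (1 to 0, LIPE) moved no other count above by over 1.5 times. With 1 replicate left out, calls over all probes ran from 297 to 2193 in A549 and from 0 to 461 in HCC827. Calls over all A549 probes were 507 with normexp, 609 with no filter, 673 with the filter on every array, 333 with replicates 2 and 3 averaged, 1801 with slide as a block and 24 with the methods' t-test (1312 before adjustment). In HCC827 they were 633 with median subtraction, 106 with normexp, 373 with the filter on every array and 0 with no filter or the methods' t-test (343 before adjustment). Median subtraction moved the median of all A549 probes from 0.06 to -0.31 and the calls that were higher from 591 of 1171 to 285 of 1112, and in HCC827 from 57 of 173 to 289 of 633.

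Signals near background limit the A549 TRIM58-WT values to bounds, and 2 or 3 replicates a group limit every count.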
